A study of Mus musculus with 24 samples.

Results

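The 10 genes described here encode the machinery of excitation-contraction coupling in skeletal muscle. They were listed by name for their place in this pathway, and the pathway was picked with earlier results of these arrays known. The list holds the calcium channel subunits Cacna1s, Cacnb1 and Cacng1, the release channel Ryr1 and its partner Fkbp1a, the junction proteins Jph1, Jph2 and Trdn, the calcium-binding protein Casq1 and the pump regulator Sln. The arrays carried 20 probes for them, out of 41174 probes for all genes, and 18 of the 20 were bright enough to be compared, among 15934 such probes in all. Every member kept at least 1 probe, so 10 of the 10687 named genes that could be compared are members.

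Gastrocnemius muscle came from male C57BL/6N mice that were 3 months old when the diets began. For 8 weeks, 8 of them ate cHF, a high-fat diet based on corn oil in which lipids made up 35% of the weight. Another 8 ate cHF+F, in which an n-3 LC-PUFA concentrate, long-chain polyunsaturated fatty acids as in fish oil (46% DHA, 14% EPA) replaced 15% of those lipids, and the last 8 ate cHF+ROSI, to which rosiglitazone had been added at 10 mg per kg of diet. Rosiglitazone activates the nuclear receptor PPARγ and is used against diabetes. The comparisons ask what the added fatty acids or the drug changed in the muscle transcripts of mice on the high-fat diet, and how both differ. All mice were fasted for 10 hours and then given Chow overnight before dissection, so every group had last eaten Chow and not its high-fat diet. Each of the 24 arrays set 1 animal (Cy5) against a common pool of RNA (Cy3) to which the animals themselves had contributed. By the study's methods the pool also held RNA of mice on a higher dose of rosiglitazone, which are not among these animals. All values below are log2 ratios of Cy5 over Cy3. A value of 0 therefore means the level of the pool, and the values of different probes cannot be set against each other as levels.

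In a skeletal muscle fibre the action potential runs down the transverse tubules, where the voltage-sensing calcium channel Cacna1s lies opposite the calcium release channel Ryr1 of the sarcoplasmic reticulum. The movement of the sensor opens Ryr1 by direct contact, calcium flows into the cytosol and the fibre contracts. Junctophilins hold both membranes together, triadin and calsequestrin form the store on the luminal side, and SERCA pumps, restrained by small peptides such as sarcolipin, return the calcium. Fast fibres, which make up most of the mouse gastrocnemius, carry more of this machinery than slow fibres do.

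Each of the 8 slides held 1 array of each diet, in the same place on every slide, so that the place on the slide and the diet cannot be told apart. From 30.4% to 61.3% of the spots were well above background in Cy5 on 23 arrays, with the least on the cHF array of slide 3, and the share was 91.1% on the cHF+ROSI array of slide 4. On the cHF+ROSI array of slide 3 the brightest 2% of the probes lay low as a set, with a median of -0.70 against -0.25 to 0.10 on the other 23 arrays. Skeletal muscle markers were bright on every array, with Cy5 signals 3680 times the background for Ckm, the muscle creatine kinase, and 6069 times for Acta1, the skeletal actin. Because muscle is a mixture of fibres and other cells, a lower value can come from fewer fibres of one type or from less RNA in each of them, and these arrays do not separate these cases.

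No member was called in any comparison at a limma adjusted p under 0.05 (0 of 10 in each), which was also true of all probes: 0% of the 15934 were called for cHF+F versus cHF, 0% for cHF+ROSI versus cHF and 0% for cHF+F versus cHF+ROSI. At an unadjusted p under 0.05 the members numbered 0 of 10 for cHF+F versus cHF, beside 6.85% of all probes, 0 of 10 for cHF+ROSI versus cHF, beside 4.69%, and 1 of 10 for cHF+F versus cHF+ROSI, beside 6.69%. That 1 gene was Ryr1. With an unmoderated test that takes the groups pairwise, in place of limma, the counts at an unadjusted p under 0.05 were 0 of 10 in all 3 comparisons, beside 7.93%, 4.73% and 5.89% of all probes. The 3 comparisons share their groups, so they are not independent of each other.

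In the loess ratios of the brightest probe, the differences of the members were bounded closely. Other settings gave larger differences for single genes, such as 0.54 for Jph1 in cHF+ROSI versus cHF from Cy5 alone. For 9 of the 10 genes the 95% interval of the difference excluded a change of 1.5-fold in either direction, in each of the 3 comparisons, and the exception was Sln each time. The median difference over the members was 0.05 for cHF+F versus cHF, -0.05 for cHF+ROSI versus cHF and 0.13 for cHF+F versus cHF+ROSI, and over all probes it was 0.00, -0.01 and 0.01. Of the 10 genes, 6 had the higher mean in cHF+F than in cHF, 2 in cHF+ROSI than in cHF, and 8 in cHF+F than in cHF+ROSI, while 50.4%, 45.3% and 54.2% of all probes did so. The median of the members on an array had a within-group SD of 0.128. This SD describes single mice and is not the error of a difference between groups, which was not computed. The median differences of the members were therefore not tested. With the log ratios centred on their median and no loess, the median difference for cHF+F versus cHF+ROSI became -0.014.

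**Figure D1:**
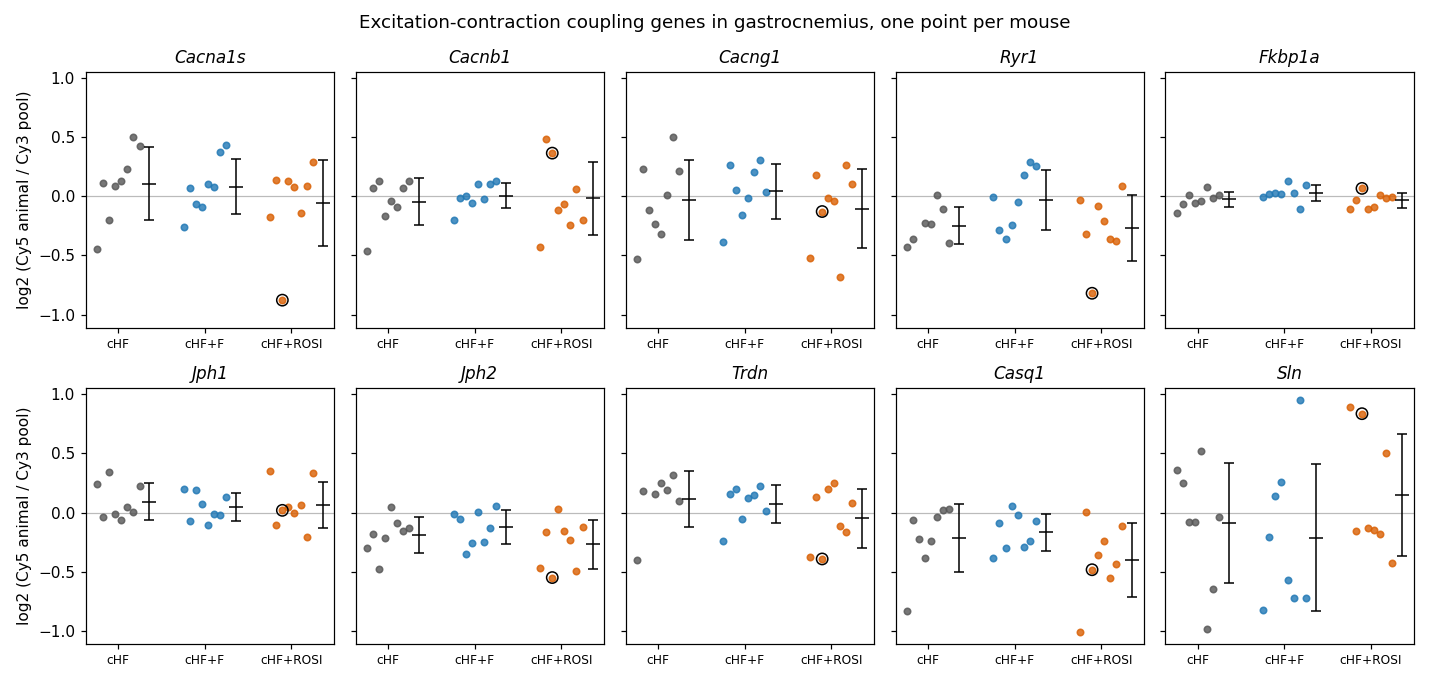
Log2 ratio of the brightest probe of each member in every mouse, with 1 point per array in slide order from left to right within a diet and the mean and SD as black bars. The groups overlap for all 10 genes, and the ring marks the cHF+ROSI array of slide 3, which is the lowest array of its group for 4 members, Cacna1s (-0.88), Ryr1 (-0.82), Jph2 (-0.55) and Trdn (-0.39).

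**Figure D2:**
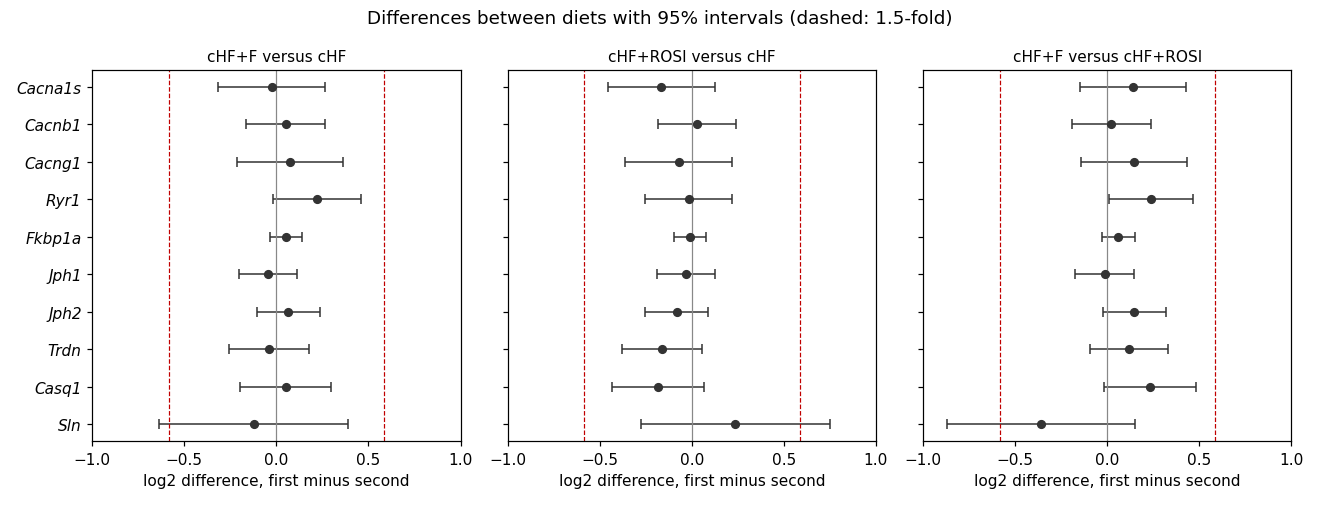
Difference of the group means of each member in the 3 comparisons, on the log2 scale, with the 95% interval from limma; the dashed lines mark 1.5-fold. Intervals of 9 genes lie inside the dashed lines in every comparison, and that of Sln crosses one of them.

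Promoter sequences were read for 6 of the members, Cacna1s, Cacnb1, Casq1, Fkbp1a, Jph2 and Ryr1, from RefSeq on build GRCm38.p6, from 250 bases before to 50 bases after each transcription start. Of these, 3 are printed because their genes varied together or with the fibre markers across the mice, as described further below. Capitals mark CAGCTG, the E-box letters that muscle regulatory factors of the MyoD family prefer, a palindrome and hence the same on either strand.
Cacna1s, chr1:136052561-136052860, plus strand: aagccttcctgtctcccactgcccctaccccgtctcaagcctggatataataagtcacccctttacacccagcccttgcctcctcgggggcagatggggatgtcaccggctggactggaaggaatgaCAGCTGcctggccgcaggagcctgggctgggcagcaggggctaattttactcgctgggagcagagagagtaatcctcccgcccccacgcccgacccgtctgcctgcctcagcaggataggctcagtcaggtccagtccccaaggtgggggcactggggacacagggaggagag
Casq1, chr1:172219846-172220145, minus strand: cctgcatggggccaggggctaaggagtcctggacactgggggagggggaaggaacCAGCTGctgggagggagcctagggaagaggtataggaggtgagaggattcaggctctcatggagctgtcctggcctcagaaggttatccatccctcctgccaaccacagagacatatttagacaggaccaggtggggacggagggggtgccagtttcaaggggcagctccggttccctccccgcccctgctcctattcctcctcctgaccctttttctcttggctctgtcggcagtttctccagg
Ryr1, chr7:29125102-29125401, minus strand: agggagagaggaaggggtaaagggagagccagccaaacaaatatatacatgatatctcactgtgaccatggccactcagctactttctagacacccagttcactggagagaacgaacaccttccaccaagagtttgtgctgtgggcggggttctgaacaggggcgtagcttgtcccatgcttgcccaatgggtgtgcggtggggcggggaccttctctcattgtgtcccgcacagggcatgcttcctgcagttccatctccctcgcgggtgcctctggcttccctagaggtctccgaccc
The letters CAGCTG began at position -123 from the start in Cacna1s and at -195 in Casq1, and were not in the window of Ryr1. They were also in the windows of Fkbp1a and of both annotated starts of Jph2, which overlap and hold the same site, and in neither window of Cacnb1. This made 5 of 8 windows of the members, with the site of Jph2 counted in both of its windows. Of the 32851 promoter windows searched, which left out 1 chromosome, 16.3% held the letters. The windows of the members had 56.7% to 73.7% G and C, beside a median of 52.7% over the windows searched. The MEF2 letters, CTA and TAG with 4 bases between them, the TATA box TATAAA and the repeat that PPAR dimers bind, 2 copies of AGGTCA spaced by 1 base, were searched on both strands and were in 0 of the 8 windows, beside 3.69%, 13.6% and 0.0396% of the 32851 windows.

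Cacna1s, the pore and voltage sensor of the skeletal muscle calcium channel, was measured by a probe with a Cy5 signal 2360 times its background (A_51_P103541, chr1:137935854-137935913 on build mm8). Its log2 ratio ran from -0.44 over a median of 0.12 to 0.50 in the cHF mice, from -0.26 over 0.07 to 0.43 in cHF+F and from -0.88 over 0.08 to 0.29 in cHF+ROSI. The medians were nearly level, and the low mean of cHF+ROSI (-0.06 ± 0.36 SD, n = 8) came from 1 array, that of slide 3: without it the mean was 0.06 ± 0.16 (SD, n = 7). Relative to cHF the difference was -0.03 (SE 0.14) for cHF+F and -0.17 (SE 0.14) for cHF+ROSI, with limma adjusted p of 0.995 and 0.996. A second probe 5′ of it on the gene (A_52_P598219), with a Cy5 signal 10.1 times its background, gave differences of 0.02 and -0.09, and its values followed those of the first with an r of only 0.34 over the 24 arrays.

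Cacnb1, the cytosolic beta subunit that brings the channel to the membrane, lay between -0.46 and 0.13 in cHF, between -0.20 and 0.13 in cHF+F and between -0.43 and 0.49 in cHF+ROSI. The group means were -0.04 ± 0.20, 0.01 ± 0.11 and -0.02 ± 0.31 (SD, n = 8 each), so that the cHF+ROSI mice were the most scattered and cHF+F the least. Cacng1, the gamma subunit of the same channel, had means of -0.03 ± 0.34, 0.04 ± 0.23 and -0.10 ± 0.33 (SD, n = 8 each). The cHF mice alone ran from -0.53 to 0.50 for Cacng1, a wider span than any difference between the groups. The largest difference of Cacnb1 or Cacng1 was 0.15 (SE 0.14) for Cacng1 in cHF+F versus cHF+ROSI, with a limma adjusted p of 0.890.

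Ryr1, the calcium release channel of the sarcoplasmic reticulum, had the smallest unadjusted p of the members, in cHF+F versus cHF+ROSI. Its brightest probe (A_52_P391110, chr7:28712530-28713228 on build mm8, a stretch that spans more than the probe itself) read from -0.43 over a median of -0.24 to 0.01 in 7 cHF mice, from -0.36 over -0.03 to 0.29 in 8 cHF+F mice, and from -0.82 over -0.26 to 0.08 in 8 cHF+ROSI mice. The cHF array of slide 3 carried a quality flag at this probe and is missing. The cHF+F mice had the highest median, 3 of them lay above all mice of both other groups, and the ranges overlapped. The difference was 0.22 (SE 0.12, a 1.16-fold change with a 95% interval of 0.987 to 1.37) for cHF+F versus cHF, -0.02 (SE 0.12) for cHF+ROSI versus cHF and 0.24 (SE 0.11, 1.18-fold) for cHF+F versus cHF+ROSI. The unadjusted limma p-values were 0.0692, 0.881 and 0.0439, and the limma adjusted p-values 0.780, 0.998 and 0.738. The exact permutation test of the single gene, two-sided, gave p = 0.0735, 0.894 and 0.0967, and over the 30 tests of 10 members in 3 comparisons the smallest adjusted value was 0.678.

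The cHF+F versus cHF+ROSI difference of Ryr1 depended on the array of slide 3 in cHF+ROSI, without which it was 0.16 with an unadjusted limma p of 0.128. With the log ratios centred on their median in place of loess it was 0.060, and from the scanner software's processed signals 0.099. A second bright probe for Ryr1 (A_51_P416074, chr7:28713559-28714265) followed the first with r = 0.91 over the mice and gave differences of 0.17, -0.06 and 0.24. Another (A_51_P256401, chr7:28731374-28731433) was dim, above background in Cy5 on 15 of 24 arrays, and did not follow the first (r = -0.03). It had a lower mean in cHF+ROSI (-0.05 ± 0.09) than in cHF (0.10 ± 0.16; SD, n = 8 each), with a limma unadjusted p of 0.0234 and an adjusted p of 0.996.

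Fkbp1a, the immunophilin that binds and steadies the release channel, was the most even of the members. It lay between -0.14 and 0.13 in all 24 mice, with group means of -0.03 ± 0.07 in cHF, 0.03 ± 0.07 in cHF+F and -0.03 ± 0.06 in cHF+ROSI (SD, n = 8 each). Only 0.351% of all compared probes had a smaller within-group SD. The intervals were therefore narrow, and that of cHF+ROSI versus cHF ran from 0.936-fold to 1.06-fold. A second probe for Fkbp1a, with a Cy5 signal 1.34 times its background, was too dim to be compared.

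Jph1, the junctophilin of skeletal muscle triads, lay between -0.21 and 0.35 in all mice, and its group medians were 0.03, 0.03 and 0.03. Its differences were -0.05 (SE 0.08) for cHF+F versus cHF and -0.03 (SE 0.08) for cHF+ROSI versus cHF. The other probe of the gene had the opposite sign in both (0.06 and 0.07), so no direction can be read from Jph1. Jph2, the junctophilin that heart and skeletal muscle share, had means of -0.19 ± 0.15, -0.12 ± 0.15 and -0.27 ± 0.21 (SD, n = 8 each) in cHF, cHF+F and cHF+ROSI. Its difference of 0.15 (SE 0.08) for cHF+F versus cHF+ROSI had a limma adjusted p of 0.787, and the gene's other probe gave 0.07.

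Trdn, triadin, which ties the release channel to calsequestrin and is made in several splice forms, had 4 probes along the gene. The brightest (A_51_P249608, chr10:32889591-32889650) gave means of 0.11 ± 0.24 (SD, n = 7) in cHF, 0.07 ± 0.16 (SD, n = 8) in cHF+F and -0.05 ± 0.25 (SD, n = 8) in cHF+ROSI, with the cHF array of slide 3 missing through a flag. Its difference of -0.16 (SE 0.11) for cHF+ROSI versus cHF had a limma adjusted p of 0.996. The probe nearest the 3′ end (A_52_P771589, chr10:33165588-33165647) gave 0.07 in that comparison, and over the mice it ran against the brightest probe, with r = -0.40. The probe farthest 5′ (A_52_P268563, chr10:32828640-32828699) and the remaining one (A_52_P202322, chr10:33154010-33157589) followed each other with r = 0.80. The probes of Trdn thus did not report a single quantity, and which transcripts each of them binds was not tested.

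Casq1, calsequestrin of the fast fibre, which holds calcium inside the sarcoplasmic reticulum, ran from -0.83 over a median of -0.14 to 0.03 in cHF, from -0.38 over -0.16 to 0.06 in cHF+F and from -1.01 over -0.40 to 0.01 in cHF+ROSI. The cHF+ROSI median was the lowest of the groups, and the ranges overlapped. Casq1 differed by 0.05 (SE 0.12) between cHF+F and cHF, by -0.18 (SE 0.12) between cHF+ROSI and cHF, and by 0.23 (SE 0.12, 1.17-fold with an interval of 0.988 to 1.40) between cHF+F and cHF+ROSI. The limma adjusted p-values were 0.988, 0.996 and 0.767, and the exact permutation p of the last was 0.0723. In the pool channel alone Casq1 differed by 0.27 in cHF+ROSI versus cHF and by -0.11 in cHF+F versus cHF+ROSI. From Cy5 alone its difference in cHF+ROSI versus cHF was 0.16, opposite in sign to that of the ratio. The part of the pool channel in the ratios of Casq1 was not tested. On slide 1 Casq1 was the lowest of its group in all 3 diets, at -0.83, -0.38 and -1.01.

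Sln, sarcolipin, a peptide that slows the SERCA pump, varied the most. Its values ran from -0.98 over a median of -0.06 to 0.52 in the cHF mice, from -0.82 over -0.39 to 0.95 in cHF+F and from -0.42 over -0.14 to 0.89 in cHF+ROSI. High and low mice were found in every group, and its within-group SD of 0.55 was larger than that of 99.1% of all compared probes. The means of -0.09 ± 0.51, -0.21 ± 0.62 and 0.15 ± 0.51 (SD, n = 8 each) gave a difference of -0.12 (SE 0.25) for cHF+F versus cHF, 0.24 (SE 0.25) for cHF+ROSI versus cHF and -0.36 (SE 0.25) for cHF+F versus cHF+ROSI, with limma adjusted p of 0.983, 0.996 and 0.823. The intervals reached from 0.644-fold to 1.31-fold, from 0.826-fold to 1.68-fold and from 0.546-fold to 1.11-fold. A change of Sln by 1.5-fold in one of the directions was thus not excluded.

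Much of the spread of most members lay in the slide means. Slide means accounted for 33.8% (Sln) to 77.7% (Jph1) of the within-group variance of the members, and in 8 of the 10 genes for more than the median of 53.5% over all probes. A mean over the few arrays of a slide holds part of this variance even where slides do not matter. That part was not subtracted, so the low share of Sln need not mark a slide effect. Besides Casq1, Cacnb1 was lowest on slide 1 in all 3 diets, and Jph2 was lowest on slide 3 in all 3. Differences taken within slides were therefore tested by flipping their signs in all ways, an exact two-sided test. Ryr1 was higher in cHF+F than in cHF on 6 of 7 slides, by 0.27 ± 0.23 (SD), with an exact p of 0.0312, and higher in cHF+F than in cHF+ROSI on 7 of 8 slides, by 0.24 ± 0.29 (SD), with an exact p of 0.0469. Casq1 was higher in cHF+F than in cHF+ROSI on 7 of 8 slides, by 0.23 ± 0.22 (SD), with an exact p of 0.0234. None of these passed an adjustment over the 30 within-slide tests, where the smallest value was 0.410.

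With the slide (the replicate number) as a block in limma, the members with an unadjusted p under 0.05 numbered 1 of 10 for cHF+F versus cHF (Ryr1), 1 of 10 for cHF+ROSI versus cHF (Casq1) and 3 of 10 for cHF+F versus cHF+ROSI (Ryr1, Casq1 and Jph2). Over all probes 12.1%, 9.55% and 13.2% had such a p in that fit, and 0.0377%, 0% and 0% were called. No member was called there either, the lowest adjusted p-values being 0.212 for Ryr1 in cHF+F versus cHF and 0.227 for Casq1 in cHF+F versus cHF+ROSI.

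**Figure D3:**
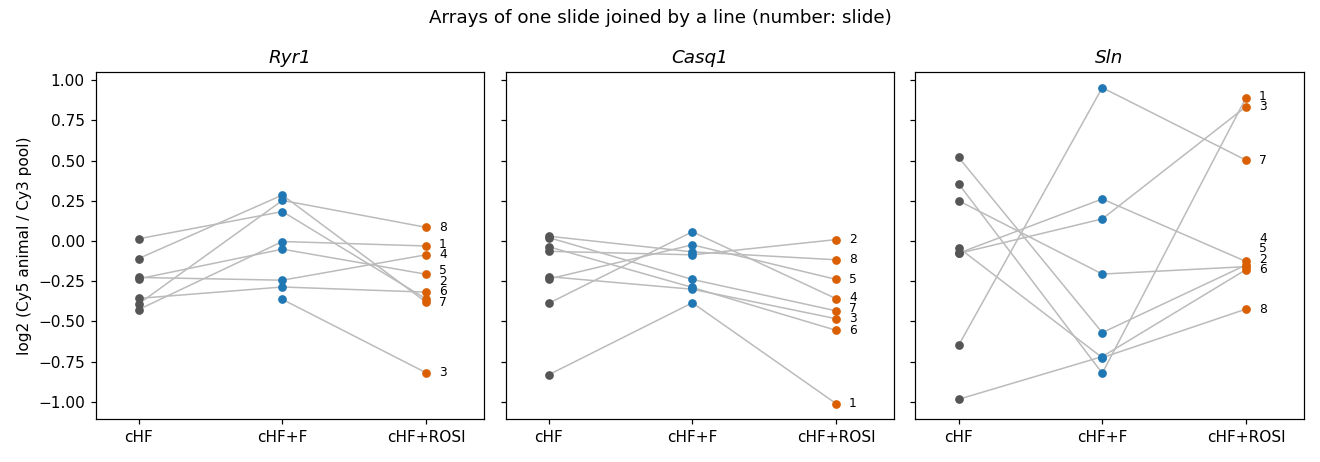
Log2 ratios of Ryr1, Casq1 and Sln in the 3 diets, with the arrays of 1 slide joined by a line and the slide number at the right; the cHF point of slide 3 is missing for Ryr1. For Ryr1 the line rises from cHF to cHF+F on 6 of 7 slides and for Casq1 it falls from cHF+F to cHF+ROSI on 7 of 8, while the lines of Sln cross in all directions.

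The members did not all vary together across the mice. After removal of the group means, the 45 pairs of members had correlations from -0.49 to 0.73 over 23 or 24 arrays, with a median of 0.08, as a description of values that share their arrays and slides. The highest were those of Cacna1s with Trdn (0.73), Casq1 with Trdn (0.68), Cacng1 with Casq1 (0.67) and Cacna1s with Ryr1 (0.67). Sln ran against Jph2 (-0.49), Fkbp1a (-0.45) and Casq1 (-0.42), and Jph1 against Cacnb1 (-0.46). Once slide means were removed as well, Cacna1s and Trdn still went together (0.87) and so did Cacna1s and Ryr1 (0.67), but Casq1 and Trdn fell to 0.20, Cacna1s and Casq1 from 0.58 to 0.18, Cacna1s and Cacng1 from 0.60 to 0.34, Cacng1 and Casq1 to 0.40 and Cacng1 and Trdn from 0.61 to 0.46, and Jph1 and Trdn turned from -0.41 to 0.58. Without the cHF+ROSI array of slide 3, and with slide means kept, Cacna1s and Ryr1 had r = 0.51 and Cacna1s and Trdn 0.70. Jph2 and Ryr1 then fell from 0.50 to 0.36, while Cacna1s and Cacnb1 rose from 0.15 to 0.51. The values with slide means removed were not computed without that array.

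**Figure D4:**
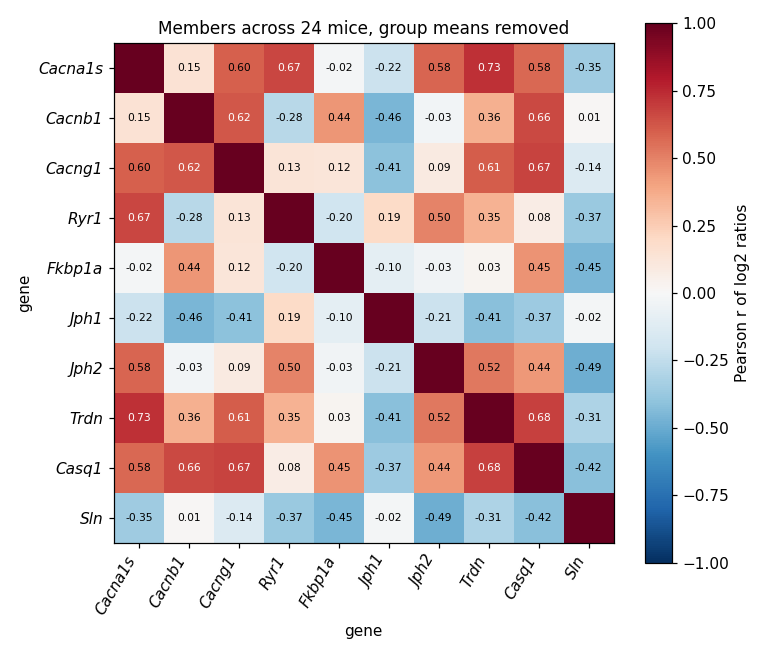
Pearson correlation of the log2 ratios of each pair of members over the 24 mice after removal of the group means (red positive, blue negative). Cacna1s, Cacng1, Trdn and Casq1 form a block with correlations from 0.58 to 0.73, which fall to between 0.18 and 0.46 without slide means for all its pairs but Cacna1s with Trdn, and Sln and Jph1 are negative with 8 of the other 9 members each.

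To see how the members went with the fibre types of each sample, they were set against the mean log2 ratio of 10 fast fibre markers, such as Myh4 and Actn3, and of 7 slow fibre markers, such as Myh7 and Tnni1, with the group means removed. Of 20 relations, those of Ryr1 and Cacna1s with the fast score had the highest Pearson's r with slides ignored, while by Spearman's rho Casq1 with the slow score ranked first. For Ryr1, Pearson's r was 0.77 (n = 23, permutation p = 2.0e-05, adjusted p = 0.000400) and Spearman's rho 0.64 (permutation p = 0.00102). For Cacna1s they were 0.77 (n = 24, permutation p = 6.0e-05, adjusted p = 0.000600) and 0.61 (permutation p = 0.00209). Without the 2 arrays farthest from the median score r fell to 0.59 and 0.57. Within the diets r lay between 0.73 and 0.85 for Ryr1 and between 0.50 and 0.87 for Cacna1s, and after removal of the slide means it was 0.56 and 0.92. The values with slide means removed were not computed without the cHF+ROSI array of slide 3, whose fast score of -0.93 was the lowest. The fast fibre markers had Cy5 signals 2476 to 5202 times their background, and the fast score itself followed the median of the brightest 2% of probes on an array with r = 0.92. With that median Cacna1s had r = 0.67 and Ryr1 0.63, and without the cHF+ROSI array of slide 3 these were 0.33 and 0.36. Without that array the fast score still followed the median of the brightest probes with r = 0.84. The part of the bright probes as a set in the relations was not tested.

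Against the slow score, Casq1 had r = -0.55 (n = 24, permutation p = 0.00566, adjusted p = 0.0226) and rho = -0.71 (permutation p = 0.000130), Cacna1s r = -0.55 (adjusted permutation p = 0.0226) and Cacng1 r = -0.53 (adjusted permutation p = 0.0280). Across all arrays a higher slow score went with lower values of these genes. Without the 2 farthest arrays r was -0.55, -0.58 and -0.51, within the 3 diets it lay between -0.16 and -0.71, between -0.19 and -0.79 and between -0.28 and -0.75, and with slide means removed it was -0.40, -0.31 and -0.43. The permutations treat arrays as exchangeable, although slide means held 71.1%, 74.7% and 73.4% of the within-group variance of Casq1, Cacna1s and Cacng1, and no p was computed within slides. Jph2 followed the fast score as well (r = 0.59, adjusted permutation p = 0.0106), but its r fell to 0.22 with slide means removed. Sln, which slow fibres and the atria express in the mouse, had r = 0.33 with the slow score and -0.38 with the fast score, with adjusted permutation p-values of 0.187 and 0.125. Jph1, Fkbp1a and Cacnb1 passed in neither, and Trdn had adjusted permutation p-values of 0.0618 and 0.125. With slide means removed, however, Trdn and Jph1 had r = 0.85 and 0.74 with the fast score, against 0.48 and -0.09 before. The cHF+ROSI array of slide 3 had the lowest fast score of all arrays (-0.93). These values were not computed without it, so its part in them was not tested.

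**Figure D5:**
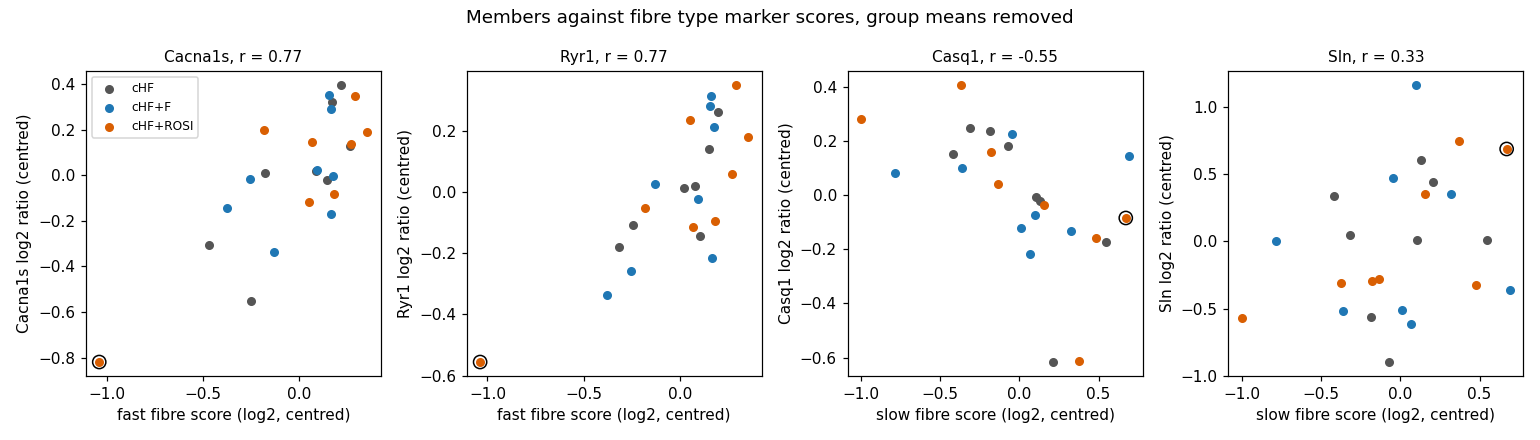
Log2 ratio of Cacna1s, Ryr1, Casq1 and Sln against the fast or slow fibre score of the same array, both with the group mean removed and 1 point per mouse coloured by diet. The ringed array, cHF+ROSI of slide 3, lies at the lower left in the panels of Cacna1s and Ryr1, where r is 0.77 in both, and r is -0.55 for Casq1 and 0.33 for Sln.

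The fibre scores of the diets overlapped. The mean fast score was 0.23 ± 0.26 in cHF, 0.29 ± 0.22 in cHF+F and 0.11 ± 0.45 in cHF+ROSI, and the slow score 0.07 ± 0.31, -0.34 ± 0.44 and -0.13 ± 0.54 (SD, n = 8 each). The 10 fast markers held none with an unadjusted limma p under 0.05 in any comparison. Of the 7 slow markers 4 had an unadjusted limma p under 0.05 in cHF+F versus cHF, all lower, and none was called. Among cells other than muscle, the sperm protein markers were higher in cHF+ROSI than in cHF for 3 of 3 genes at an unadjusted limma p under 0.05, with scores from -0.88 to 2.49, and 1 of 4 liver markers was so too, with scores from -1.95 to 1.24 there and from -1.84 to -0.39 in cHF. The highest sperm protein scores in cHF+ROSI were 2.49 on slide 8 and 0.74 on slide 7, and the median of that diet was -0.11. Of 2 blood markers 1 had a lower value in cHF+ROSI at such a p, with scores from -0.63 to -0.04 against -0.41 to 0.96 in cHF. In cHF+F versus cHF+ROSI 1 blood marker was higher (Hba-a1, by 0.47) and 1 sperm marker lower (Prm2, by -1.13) at such a p. Of 4 macrophage markers 1 was lower in cHF+F than in cHF at such a p, where the scores ran from -0.55 to 0.11 against -0.20 to 0.25. Over all probes the shares with such a p were 6.85% for cHF+F versus cHF, 4.69% for cHF+ROSI versus cHF and 6.69% for cHF+F versus cHF+ROSI. The 5 adipocyte markers, 4 Schwann cell and nerve markers and 6 skeletal muscle markers held none with such a p in any comparison, and no marker of any list was called. Their part in the values of the members was not tested.

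Genes of the most similar pattern to each member were sought over the 24 arrays with group means removed. Those of Jph2 were Myom2 (r = 0.79), a protein of the M-band, Pkm (0.76), pyruvate kinase, and Myh4 (0.75), the myosin of the fastest fibres, and Myh4 was also the closest to Ryr1 (0.81). Cacna1s went with Mybpc2 (0.93), the fast myosin-binding protein C, and then with Oaz1 and Anapc5 (0.90 each). After Myh4, Ryr1 was nearest to Pde4dip (0.80) and Lin54 (0.79). Mybpc2 and Myh4 are themselves among the fast fibre markers. Trdn went with Klhl31 (0.90) and Atp2a1 (0.89), the fast SERCA pump. Casq1 was nearest to Sh3bgr (0.87) and Cacnb1 to Actr1b (0.94). The nearest to Fkbp1a, Mccc1, reached 0.77. Mybpc2, Oaz1, Anapc5, Pde4dip, Myom2, Pkm, Myh4, Klhl31 and Atp2a1 were brighter than 98.0% or more of all compared probes. The brightest 2% lay low on the cHF+ROSI array of slide 3. The part of that array in these values was not tested.

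A wider list of 50 genes of the same pathway, of which 40 could be compared, was examined beside the members. For cHF+F versus cHF 3 of 40 had an unadjusted limma p under 0.05, for cHF+ROSI versus cHF 1 of 40, and for cHF+F versus cHF+ROSI 1 of 40, which are 7.5%, 2.5% and 2.5% beside the shares of all probes given above. No gene of the list was called. Of the 9 junctional and luminal proteins of the sarcoplasmic reticulum, 2 were among these, both higher in cHF+F. Sypl2, mitsugumin 29 of the triad, had means of -0.07 ± 0.17 in cHF, 0.20 ± 0.16 in cHF+F and -0.12 ± 0.16 in cHF+ROSI (SD, n = 8 each), with adjusted p of 0.420 against cHF and 0.434 against cHF+ROSI. Asph, whose gene also encodes junctin, had -0.28 ± 0.23 in cHF and 0.02 ± 0.13 in cHF+F (adjusted p = 0.473).

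Of the other groups of the wider list, membrane excitation gave Kcnj2, an inward rectifier potassium channel, which had lower means in cHF+F (-0.17 ± 0.09) and in cHF+ROSI (-0.15 ± 0.14) than in cHF (-0.01 ± 0.12; SD, n = 8 each), with limma adjusted p of 0.57 and 0.996. The 4 voltage sensor partners, 6 release channel partners, 5 genes of calcium uptake and buffering, 6 of the transverse tubule and 2 of store-operated calcium entry held none with an unadjusted p under 0.05 in any comparison. Their median differences lay between -0.13, for calcium uptake and buffering in cHF+ROSI versus cHF, and 0.10, for the same genes in cHF+F versus cHF+ROSI. The fast pump Atp2a1 differed by 0.00 (SE 0.18) between cHF+F and cHF, and the slow pump Atp2a2 by -0.34 (SE 0.21, limma adjusted p = 0.852).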

How the data were processed

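The deposited scanner files held, per the file headers, spot and background intensity values in 2 colours from Feature Extraction 10.5.1.1, with probe positions on build mm8. The authors labelled each animal's RNA with Cy5 and the pool with Cy3, with no dye swap. The authors' deposited table of normalized log2 values (20721 rows, 19387 probes) held 16 columns that match cHF and cHF+F mice, which served as an alternative, and 8 columns that were not used. Its columns all had a median of 8.99, and its cHF means followed the Cy5 signal (r = 0.995 over 15934 probes) and not the ratio (r = 0.00677), so its scale is that of a Cy5 level with equal medians; by the study's methods the log Cy5 signal had been normalized with the help of Cy3.

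Median spot signals were corrected with limma's normexp (offset 50) and each array's log2 ratios were brought to a common trend by loess (span 0.3). Spots of a probe were averaged, flagged spots were set to missing, and probes were kept at a mean signal of at least 2 times background in both channels with at least 4 values in every group. Of the kept probes, 12561 were named through their accession, 2542 by the file, and 831 had no symbol. All 24 arrays entered 1 limma model with the diet, without a block, and p-values were adjusted over all kept probes by Benjamini-Hochberg. The number of arrays limits the precision. Single members were also tested by exact permutation (12870 regroupings, or 6435 with a missing value) and by 256 sign flips within slides, and fibre scores by 100000 permutations, all two-sided. The limma test was checked on simulated data with independent noise, no slide effect and differences larger than those of the members. How it behaves with slide effects or smaller differences was not tested.

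A gene was represented by its brightest kept probe. All members are named in every comparison, of the wider list the genes with an unadjusted p under 0.05, and for likeness up to 3 genes of highest r for a member. Some likeness results are not reported here. The members and lists were chosen with earlier results of these data known. Samples with the same replicate number shared a slide, by the headers. Their deviations correlated with r from -0.11 to 0.64 over 24 pairs, 18 of them over 0.1. Of 168 pairs of unlike number, 39 were over 0.1. The number was treated as a batch and not as a pairing of animals, in the block alternative and the within-slide tests. The main fit held no term for it. Arrays of one group had r between 0.807 and 0.995 in Cy5, so none was a copy of another. Alternatives changed the background correction, spot summary, normalization, channel, probe filter, block, array weights, slides, test, source table, probe choice and single arrays. R 4.3.3, limma 3.58.1, jsonlite 2.0.0, Python 3.11.15, numpy 2.4.6, pandas 2.3.3, scipy 1.17.1 and matplotlib 3.10.9 were used.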

Additional observations from a re-analysis of the deposited data

Results flagged for a closer look

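Of 30 sets of values, 10 members in 3 diets, 2 held a mouse far below the others of its diet by Dixon's test, which chance does in about 1 of 20 sets. The Cacna1s value of the cHF+ROSI array of slide 3 was -0.88, and the nearest of the other 7 was -0.18. This is the array on which the brightest 2% of all probes had a median of -0.70. The Trdn value of the cHF array of slide 1 was -0.41, and the nearest of the other 6 was 0.10. Casq1 and Cacnb1 were lowest on slide 1 in all 3 diets. The part of the array or slide in either value was not tested.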

How the results depend on the processing

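No member was called in any comparison under any alternative, left-out array included (0 of 10 each). Of 940 values of single members under the alternatives, 864 kept their sign and 76 changed it, all among differences that were not called. The block by replicate number (slide) gave 1 member with an unadjusted p under 0.05 against cHF in each diet and 3 in cHF+F versus cHF+ROSI. Of the 40 genes of the wider list it gave 6 for cHF+F against cHF, 5 for cHF+ROSI against cHF and 4 for the diets against each other, beside 12.1%, 9.55% and 13.2% of all probes. Slides 4 to 8 alone gave the same member counts, beside 7.38%, 9.08% and 6.31% of all probes, and of the wider list 6 for cHF+ROSI against cHF and 2 for cHF+F against cHF+ROSI. Over all probes the shares were 10.6%, 8.79% and 10.7% with array weights, 8.47%, 5.5% and 5.24% with processed signals, and at most 0.596% with median centring.

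In cHF+F versus cHF+ROSI the member count of 1 became 0 from Cy5 alone, the scanner's processed signals, loess span 0.1, mean spot signals, median centring, no background correction, the methods' test and without the 3 arrays that stand apart (cHF 3, cHF+ROSI 3 and 4, an alternative chosen after seeing the data). Over all probes the shares in these settings ran from 0.596% (median centring) to 6.84% (mean spot signals). In cHF+F versus cHF the count of 0 became 1 with array weights, the authors' table, loess span 0.1 and without those 3 arrays. Beside these counts stood 10.6%, 12.4%, 7.52% and 6.53% of all probes. With Cy5 alone the wider list's counts became 0 for cHF+F versus cHF+ROSI, beside 0.822% of all probes, and 1 for cHF+F versus cHF, beside 1.39%. Processed signals gave 6 for cHF+F versus cHF, beside 8.47%. Array weights gave 4 for cHF+F versus cHF+ROSI, beside 10.7%, and 4 for cHF+ROSI versus cHF, beside 8.79%. Median centring gave 0 in all 3 comparisons, beside at most 0.596%. It also took the median of the members in cHF+F versus cHF+ROSI to -0.014. For cHF+ROSI versus cHF the wider list's counts became 0 with mean spot signals (4.63% of all probes) and with a signal of 4 times background (4.55%). They became 2 with no background correction (4.76%) and without the 3 arrays (4.29%). Leaving out 1 array gave 0 to 1 members for cHF+F versus cHF, with 3 to 4 of the wider list. It gave 0 to 2 and 0 to 3 for cHF+ROSI versus cHF, and 0 to 2 and 1 to 2 for the diets against each other.

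The sign of the cHF+F versus cHF difference changed with Cy5 alone for Cacnb1 (-0.057), Cacng1 (-0.00897), Jph1 (0.15) and Jph2 (-0.038), with processed signals for Fkbp1a (-0.016), with array weights for Casq1 (-0.013) and Sln (0.039), with the authors' table for Jph1 (0.028) and Trdn (0.00858), with the mean over probes for Jph1 (0.00665) and Trdn (0.035), with median centring for Cacnb1 (-0.047), Cacng1 (-0.034), Casq1 (-0.021) and Jph2 (-0.050), and with slides 4 to 8 alone for Jph2 (-0.00407) and Sln (0.086). For cHF+ROSI versus cHF the sign changed with Cy5 alone for Cacnb1 (-0.18), Casq1 (0.16), Fkbp1a (0.10), Jph1 (0.54), Ryr1 (0.045) and Trdn (0.16), with processed signals for Ryr1 (0.033), with loess span 0.1 for Cacnb1 (-0.000248) and Ryr1 (0.11), with the mean over probes for Jph1 (0.017), with mean spot signals for Fkbp1a (0.00255), with median centring for Cacnb1 (-0.00474), Jph1 (0.065), Ryr1 (0.16) and Trdn (0.00481), with no background correction for Cacnb1 (-0.024) and Ryr1 (0.10), with the replicate block for Ryr1 (0.046), with slides 4 to 8 alone for Cacnb1 (-0.093) and Jph1 (0.00555), and with the 3 arrays left out for Jph1 (0.013) and Ryr1 (0.045). Between the diets in cHF+F versus cHF+ROSI it changed with Cy5 alone for Fkbp1a (-0.00601) and Trdn (-0.34), with processed signals for Cacna1s (-0.018), with array weights for Cacnb1 (-0.10) and Jph1 (0.020), with loess span 0.1 for Cacna1s (-0.024), with median centring for Cacna1s (-0.062), Cacnb1 (-0.042) and Trdn (-0.056), and with no background correction for Cacna1s (-0.037). The cause of these changes was not tested.

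Leaving out 1 array changed a sign in cHF+F versus cHF for Cacna1s (-0.10 to 0.031), Cacnb1 (-0.00912 to 0.079), Casq1 (-0.039 to 0.084) and Trdn (-0.13 to 0.00337), in cHF+ROSI versus cHF for Cacnb1 (-0.044 to 0.086), Cacng1 (-0.14 to 0.010), Fkbp1a (-0.024 to 0.00696), Jph1 (-0.074 to 0.00636) and Ryr1 (-0.067 to 0.062), in cHF+F versus cHF+ROSI for Cacnb1 (-0.036 to 0.095) and Jph1 (-0.052 to 0.028). Ryr1 kept its sign in cHF+F versus cHF (0.073 to 0.28) and cHF+F versus cHF+ROSI (0.060 to 0.34) under every alternative, and Casq1 in the latter (0.073 to 0.29). The same held in cHF+F versus cHF+ROSI for Cacng1 (0.044 to 0.22), Jph2 (0.015 to 0.19) and Sln (-0.53 to -0.085). In cHF+ROSI versus cHF it held for Cacna1s (-0.24 to -0.035), Jph2 (-0.17 to -0.029) and Sln (0.11 to 0.32). In the pool channel alone, where no RNA differs between arrays, the differences of the members reached 0.52 in size (Jph1, cHF+ROSI versus cHF), and 0 of 10 had an unadjusted p under 0.05 in any comparison.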
